A study of Homo sapiens with 22 samples.

Results

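The hypoxia response was compared between 6 neuroblastic and 5 adherent human neuroblastoma cell lines, each profiled on 1 array at 1% O2 and 1 array at 20% O2 after 18 hours, so that all 11 line pairs and all 22 arrays of the series were used. The log2 ratio of hypoxia over normoxia was taken within each line, and the comparison was made over probesets (the sets of oligonucleotides that read 1 transcript on the array) with a mean signal of at least 100, which left 28515 of 54675. The neuroblastic class comprised GI-LI-N, IMR-32, SK-N-SH, LAN-1, SK-N-BE2(C) and SK-N-F1. The adherent class comprised ACN, SHEP-2, GI-ME-N and the line SHEP21N in the states without and with MYCN overexpression, the former cultured with tetracycline at 50 ng/mL and the latter without it. No other allele or agent is labelled, and the labels give no other difference between the normoxic and hypoxic cultures of a line. The 3 SHEP cultures are related and were provided by a laboratory, whereas the other 8 lines came from a cell line collection. ACN and GI-ME-N are the only adherent lines from that collection. No line has replicate arrays, so the spread is that between lines and p values count related lines as independent. As background, SK-N-SH, the parent of the SHEP lines, stands in the other class here. The class names are not part of the sample labels and were checked against marker genes. Signals are given as deposited, and changes after each array was centred on its median, so that a change can differ slightly from the ratio of the signals. Larger and smaller changes are compared with their sign, so that a deeper fall counts as the smaller change.

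When oxygen is low, prolyl hydroxylases of the EGLN family no longer mark the alpha subunits of hypoxia-inducible factor for destruction through VHL, and the factor pairs with ARNT and binds short DNA elements, the hypoxia response elements, near its target genes. Its targets raise glucose uptake and glycolysis, limit mitochondrial respiration, promote mitophagy, harden the collagen matrix and call in blood vessels. Neuroblastoma arises from the sympathetic lineage, and its cell lines range from neuroblastic cells with an adrenergic programme to flat, substrate-adherent cells with a mesenchymal programme.

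Most markers followed the class names. Of 12 measured adrenergic markers, 10 were above every adherent array on every neuroblastic array, among them PHOX2A, a master regulator of sympathetic neurons, and their summed signal was between 48052 and 160289 in the neuroblastic against 535 and 5254 in the adherent arrays. Of 14 mesenchymal markers, 8 were apart in the other direction, among them the Hippo effectors YAP1 and WWTR1, with a summed signal between 112843 and 251944 in the adherent against 21273 and 53969 in the neuroblastic arrays. TWIST1 had the higher median in the neuroblastic lines. The 10 markers of leukocytes, epithelium, Schwann cells and endothelium overlapped between the classes, and their summed signal was at most 1440 and 1811. Single markers stood out, as SOX10 at 1288 in normoxic ACN and KRT19 at 926 in normoxic SK-N-F1. In normoxic ACN the mesenchymal markers COL1A1 and THY1 were low, at 52.6 and 70.3. MYCN signals lay between 5788 and 67626 in the neuroblastic lines, SK-N-SH included at 33504 and 35223, although that line is known for lacking MYCN amplification, so its label is open to question. MYCN overexpression in SHEP21N was not seen at its brightest probeset, where the arrays labelled with overexpression gave 19 in normoxia and 6 in hypoxia. Another probeset gave 13.7 and 830, so the normoxic array goes against its label. That array also had a GAPDH 3'/5' ratio of 67.3 and an ACTB ratio of 94.0, against at most 1.40 and 5.05 elsewhere (a ratio read as a sign of RNA quality). No signal on the 4 SHEP21N arrays is under 3.3, while each of the 18 remaining arrays goes down to 0.803 or less. Adherent lines scattered more: the median SD of the change within a class was 0.64 on the log2 scale, against 0.36 in the neuroblastic lines, and between 7.51% and 10.7% of probesets changed at least 2-fold in a neuroblastic line against 8.79% in GI-ME-N and between 18.7% and 27.7% in the other adherent lines. SK-N-SH also resembled GI-LI-N and IMR-32: across 12519 genes the normoxic levels of these 3 lines correlated at a Pearson r between 0.937 and 0.948, against 0.756 to 0.862 in the other 12 neuroblastic pairs and 0.785 to 0.911 among the SHEP cultures. The 6 neuroblastic lines may therefore hold fewer independent samples than n = 6 counts, in the permutation tests too. Without SK-N-SH the class difference was 1.28 at FAM162A, 0.88 at BNIP3 and 2.90 at RGS4, and without both SHEP21N cultures it was 0.81, 0.48 and 2.89. The part of RNA quality in the results was not tested beyond this.

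Within the neuroblastic lines, 49 probesets passed an adjusted p of 0.05 in limma (Benjamini-Hochberg), which is 0.172% of those tested. They were 43 that rose (0.151%) and 6 that fell (0.021%). In the adherent lines 3 passed, or 0.0105%, 1 that rose and 2 that fell. At an unadjusted p below 0.05 in limma the order was the other way. There were 2152 probesets (7.55%) in the neuroblastic and 3541 (12.4%) in the adherent lines, so the counts of calls do not rank the responses of the classes. Read at the brightest probeset of each of 12519 measured genes, 23 genes rose in the neuroblastic lines (0.184%) and 2 fell (0.016%), which were NQO1, a quinone reductase of the oxidative stress response, and CHAC2, a glutathione-degrading enzyme. In the adherent lines ANKRD37 rose and CLCN5 fell (0.00799% each way). The difference between the classes passed for 0 probesets (0%). The smallest adjusted p was 0.0823, and 1644 probesets (5.77%) had an unadjusted p below 0.05, 761 with the larger (2.67%) and 883 with the smaller change (3.1%) in the neuroblastic lines. Over genes 644 (5.14%) had such a p. The methods' t-test gave 0 after Benjamini-Hochberg adjustment, with 1615 at an unadjusted p below 0.05. Of the 49 probesets called in the neuroblastic lines, 46 had a mean change further in their direction than in the adherent lines, including 4 whose adherent mean had the other sign, although the rule that chose them used those changes. Averaging the 3 alike lines SK-N-SH, GI-LI-N and IMR-32 into 1 left 0 calls in the neuroblastic lines (limma, smallest adjusted p = 0.0512, 1566 at an unadjusted p below 0.05), and leaving out both SHEP21N lines gave 10 calls for the difference, 4 up and 6 down. RGS4, CLCN5, FAM162A, BNIP3 and EGLN3 were not among those 10.

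**Figure D1:**
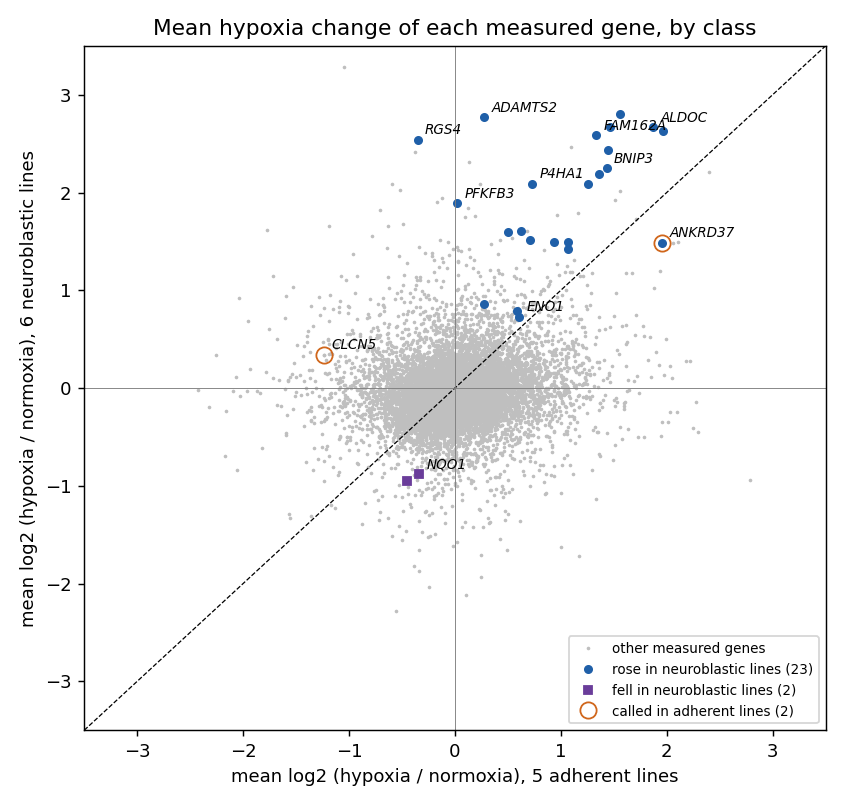
Each point is 1 of 12519 measured genes at its brightest probeset, with the mean log2 change of the 5 adherent lines on the horizontal and of the 6 neuroblastic lines on the vertical axis. The 23 genes that rose in the neuroblastic lines lie above the dashed line of equal change, apart from ANKRD37.

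Promoter sequences of the 3 marker genes and of 3 genes whose classes did not overlap are shown, so that the changes can be read beside the letters that hypoxia-inducible factor is known to bind. Windows reach from 250 bases before to 50 bases after the annotated start (RefSeq, GRCh38.p14), and capitals mark the core of the hypoxia response element, ACGTG or GCGTG, on either strand, where overlapping matches were counted separately. FAM162A (chr3:122383932-122384231, plus strand), BNIP3 (chr10:131981874-131982173, minus strand), EGLN3 (chr14:33951025-33951324, minus strand), P4HA1 (chr10:73096817-73097116, minus strand), PFKFB3 (chr10:6144671-6144970, plus strand) and RGS4 (chr1:163068621-163068920, plus strand) are printed along their own strand.
FAM162A: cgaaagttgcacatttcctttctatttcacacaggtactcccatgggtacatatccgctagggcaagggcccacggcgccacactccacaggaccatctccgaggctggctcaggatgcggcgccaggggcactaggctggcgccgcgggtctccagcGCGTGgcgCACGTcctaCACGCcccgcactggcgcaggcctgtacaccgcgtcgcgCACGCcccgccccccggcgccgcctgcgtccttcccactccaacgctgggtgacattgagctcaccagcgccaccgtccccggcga
BNIP3: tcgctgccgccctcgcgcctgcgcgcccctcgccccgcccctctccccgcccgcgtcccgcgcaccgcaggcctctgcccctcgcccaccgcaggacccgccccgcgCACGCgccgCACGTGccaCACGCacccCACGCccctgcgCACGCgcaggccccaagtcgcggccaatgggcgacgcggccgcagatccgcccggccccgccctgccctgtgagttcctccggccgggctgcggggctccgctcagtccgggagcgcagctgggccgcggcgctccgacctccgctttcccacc
EGLN3: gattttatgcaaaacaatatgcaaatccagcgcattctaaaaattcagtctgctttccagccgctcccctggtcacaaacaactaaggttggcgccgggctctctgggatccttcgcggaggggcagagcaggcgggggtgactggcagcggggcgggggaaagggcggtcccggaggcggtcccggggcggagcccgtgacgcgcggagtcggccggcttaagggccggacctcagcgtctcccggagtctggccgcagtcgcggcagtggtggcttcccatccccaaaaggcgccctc
P4HA1: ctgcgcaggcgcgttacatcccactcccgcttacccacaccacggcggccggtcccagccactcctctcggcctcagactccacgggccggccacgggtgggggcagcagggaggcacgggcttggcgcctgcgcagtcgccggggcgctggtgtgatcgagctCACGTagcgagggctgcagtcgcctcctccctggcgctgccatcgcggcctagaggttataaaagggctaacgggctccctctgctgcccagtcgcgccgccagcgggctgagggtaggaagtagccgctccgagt
PFKFB3: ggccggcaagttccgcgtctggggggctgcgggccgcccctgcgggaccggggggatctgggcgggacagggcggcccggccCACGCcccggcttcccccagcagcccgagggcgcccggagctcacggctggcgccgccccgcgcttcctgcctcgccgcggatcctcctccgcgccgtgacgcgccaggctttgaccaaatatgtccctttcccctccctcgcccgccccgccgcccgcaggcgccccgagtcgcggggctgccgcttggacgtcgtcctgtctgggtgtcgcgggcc
RGS4: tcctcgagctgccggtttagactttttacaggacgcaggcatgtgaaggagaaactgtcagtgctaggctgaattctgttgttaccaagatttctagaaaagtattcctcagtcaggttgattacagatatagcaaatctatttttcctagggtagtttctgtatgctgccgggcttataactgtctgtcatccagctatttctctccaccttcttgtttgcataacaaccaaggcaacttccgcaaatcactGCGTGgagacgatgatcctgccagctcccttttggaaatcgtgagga
The core was found 4 times in the window of FAM162A, 6 times in that of BNIP3, where overlapping letters match on both strands, and 1 time each in those of P4HA1, PFKFB3 and RGS4. The window of EGLN3 does not hold these letters. Of all 27305 promoters, 48.4% hold at least 1 core, and of the 22 with a sequence among the 23 genes that rose in the neuroblastic lines 18 (81.8%) do. The 27305 were not limited to measured genes, so the shares come from unlike sets, and enrichment was not tested. A match of 5 letters is a description of the window and no site of binding.

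FAM162A, a mitochondrial protein induced by hypoxia, had signals between 2286 and 4353 (median 2718) in the 6 normoxic neuroblastic lines and between 11522 and 31508 (median 17900) in hypoxia. Among the adherent lines it went from 9111 to 34384 in ACN, from 3032 to 14219 in SHEP-2, from 7822 to 19785 in GI-ME-N, from 7924 to 11787 in SHEP21N without MYCN overexpression and from 8138 to 12356 with it. It was higher in hypoxia in all 11 lines, and only SHEP-2, at a log2 change of 2.32, reached into the neuroblastic range of 2.09 to 2.90. The mean log2 change was 2.58 ± 0.30 (SD, n = 6) and 1.33 ± 0.75 (SD, n = 5), a difference of 1.25 (SE 0.32, 95% CI 0.54 to 1.96). Its adjusted p in limma was 0.835 over all probesets, and the exact two-sided permutation test of the class labels alone gave p = 0.00866, the smallest p it allows being 0.00433. The other 4 measured probesets of FAM162A gave differences between 0.44 and 2.26.

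BNIP3, a mitophagy receptor on the outer mitochondrial membrane, lay between 2609 and 4504 in normoxia and between 8681 and 23117 in hypoxia in the neuroblastic lines. In the adherent lines its log2 change was 2.78 in ACN, 1.98 in SHEP-2, 0.56 in GI-ME-N, 0.93 in SHEP21N without and 0.94 with MYCN overexpression. The classes overlapped: ACN was just under the highest neuroblastic line, 2.83 in IMR-32, while 3 adherent lines were below the lowest of 1.53 in SK-N-BE2(C). Means were 2.25 ± 0.47 (SD, n = 6) and 1.44 ± 0.92 (SD, n = 5), and the difference of 0.81 (95% CI -0.07 to 1.70) did not pass (adjusted p = 0.835 in limma, exact permutation p = 0.0996).

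EGLN3, the prolyl hydroxylase that feeds back on the pathway, was dim, with a neuroblastic median of 77.6 in normoxia and 482 in hypoxia. Its change was the most uneven within the neuroblastic lines of the 3, from 0.54 in SK-N-F1 to 3.95 in LAN-1. Among the adherent lines it was 2.99 in ACN, 1.73 in GI-ME-N, 1.39 in SHEP-2, 1.19 and 0.26 in SHEP21N without and with MYCN overexpression. All 11 lines were above their normoxic level, and the mean changes of 1.92 and 1.51 gave a difference of 0.41 (95% CI -1.01 to 1.84, adjusted p = 0.906 in limma, exact permutation p = 0.576). A second probeset of about the same brightness gave 1.21, and without both SHEP21N lines the difference turned to -0.11, so the sign at this gene is not settled.

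**Figure D2:**
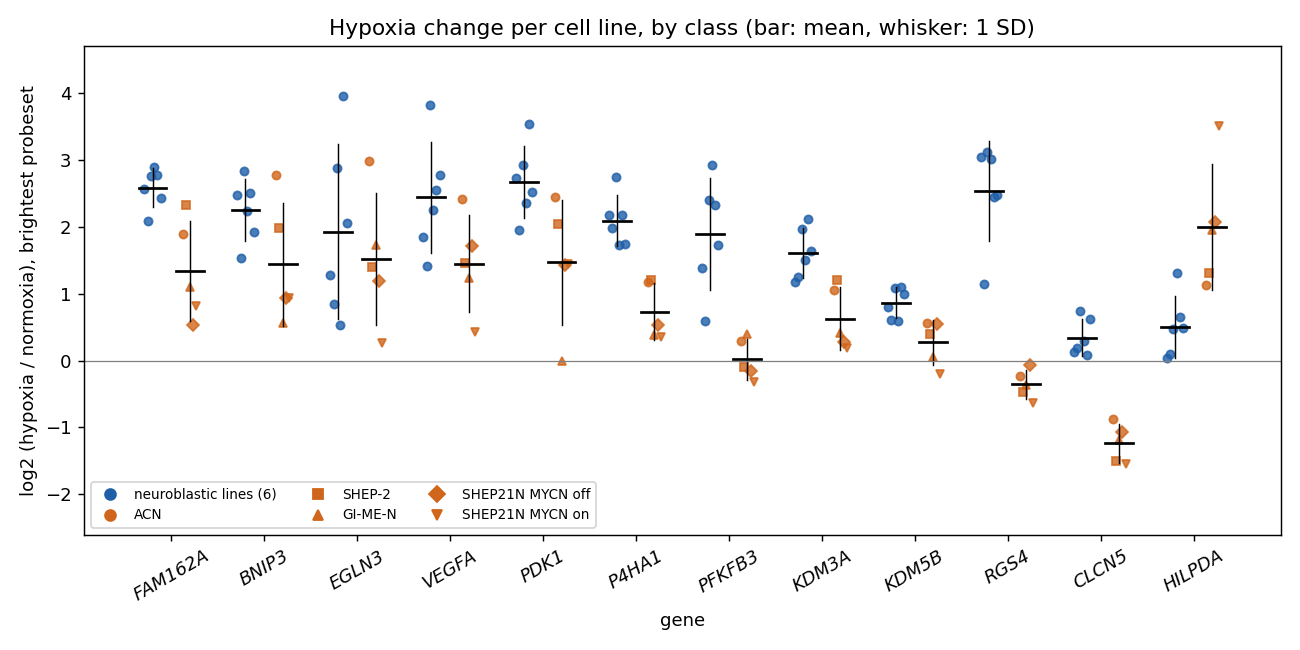
Log2 change from 20% to 1% O2 at the brightest probeset of 12 genes, 1 point per cell line, with the 6 neuroblastic lines in blue and the 5 adherent lines in orange (bar, mean; whisker, 1 SD). Classes do not overlap at P4HA1, PFKFB3, KDM5B, RGS4 and CLCN5, and HILPDA has the larger mean change in the adherent lines.

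Of 25 measured genes of glucose transport and glycolysis, 6 rose in the neuroblastic lines (ALDOC, ENO1, GBE1, HK2, PFKFB3 and PFKFB4), against 0.184% of all measured genes. In the adherent lines and for the difference 0 passed. For the difference 5 of the 25 had an unadjusted p below 0.05 in limma, against 5.14% of all measured genes. The median log2 change was 0.74 and 0.61, the change was larger in the neuroblastic lines for 18 of 25 genes, against 45.2% of all measured genes, and the median difference was 0.18 against -0.04 over all genes. Under the signals as deposited the count was 19 of 25, against 52.3% of all genes. Line medians overlapped, from 0.52 in SK-N-BE2(C) to 1.06 in LAN-1 and from 0.19 in GI-ME-N to 0.98 in SHEP-2. PGK1 (0.95 and 0.59), SLC2A1, the main glucose transporter (1.01 and 0.84), and LDHA (0.41 and 0.45) did not pass in either class at their brightest probesets, although another probeset of PGK1 passed in the neuroblastic lines (adjusted p = 0.0277 in limma).

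PFKFB3, the kinase whose product activates phosphofructokinase, set the classes apart among them. Its signal lay between 106 and 1369 (median 929) in normoxia and between 880 and 5099 (median 3057) in hypoxia in the neuroblastic lines. The adherent lines went from 1916 to 2386 in ACN, 795 to 698 in SHEP-2, 2218 to 3438 in GI-ME-N, 1222 to 1123 in SHEP21N without and 1409 to 971 with MYCN overexpression. Every neuroblastic line had a larger change than every adherent line, as for 0.487% of measured genes, and the lowest of them, 0.60 in SK-N-BE2(C), was near the 0.40 of GI-ME-N. The log2 change averaged 1.89 ± 0.83 (SD, n = 6) and 0.02 ± 0.31 (SD, n = 5), with a difference of 1.87 (SE 0.38, adjusted p = 0.576 in limma, exact permutation p = 0.00433). The permutation p is the smallest that test allows and only restates the lack of overlap, since PFKFB3 was picked by its p. PFKFB4, a related isoform, rose by 2.80 in the neuroblastic lines and had a mean of 1.56 in the adherent lines. GBE1, the glycogen branching enzyme, rose by 1.60 in the neuroblastic lines and ran both ways in the adherent lines, from 1.41 in ACN to -0.46 in SHEP21N with MYCN overexpression, with a difference of 1.10 (SE 0.37) that was 0.53 without both SHEP21N cultures.

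Among 15 mitochondrial genes, FAM162A, BNIP3, PDK1, AK4 and HK2 rose in the neuroblastic lines, against 0.184% of all measured genes. The larger change was there for 11 of 15, against 45.2% of all measured genes, with a median difference of 0.26. The class medians ran the other way, at 0.57 in the neuroblastic and 0.96 in the adherent lines. With quantile normalization it was 9 of 15. PDK1, the kinase that shuts pyruvate out of the citric acid cycle, went from a median of 669 to 4413 in the neuroblastic lines, a change between 1.95 and 3.53. Adherent lines gave 2.44 in ACN, 2.03 in SHEP-2, -0.01 in GI-ME-N, 1.43 and 1.44 in SHEP21N without and with MYCN overexpression. GI-ME-N stood apart, with signals of 3470 and 4041 and the highest normoxic level of the 11 lines. The difference of 1.20 (SE 0.42) had an adjusted p of 0.835 in limma, and the other probesets of PDK1 gave 0.73 and 0.89, with GI-ME-N at 0.95 and 0.84.

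**Figure D3:**
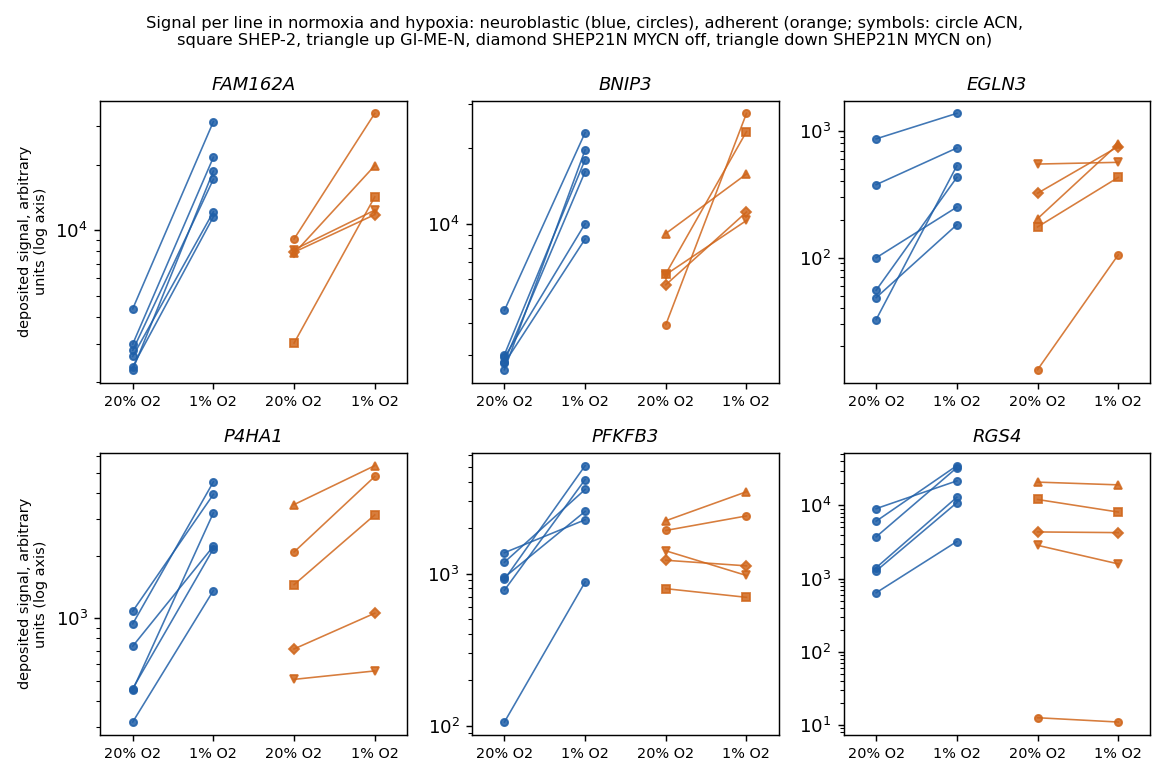
Deposited signals (log axis) of 6 genes in each line at 20% and 1% O2, with neuroblastic lines in blue and adherent lines in orange, each line joining the arrays of 1 cell line. Most adherent lines start higher at FAM162A and BNIP3, and RGS4 climbs in all 6 neuroblastic lines only.

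Enzymes that use oxygen as a substrate came next. The collagen prolyl hydroxylases P4HA1 and P4HA2 and the lysyl hydroxylase PLOD1 rose in the neuroblastic lines. They were 3 of 10 measured genes of collagen hydroxylation and crosslinking, against 0.184% of all measured genes. The signed change was larger in that class for 6 of 10, against 45.2% of all measured genes. P4HA1 lay between 317 and 1081 (median 597) in normoxic and between 1359 and 4517 (median 2712) in hypoxic neuroblastic lines. The adherent changes were 1.18 in ACN, 1.21 in SHEP-2, 0.39 in GI-ME-N, 0.53 and 0.35 in SHEP21N without and with MYCN overexpression, all below the lowest neuroblastic change of 1.73 in SK-N-F1. The means of 2.09 ± 0.37 (SD, n = 6) and 0.73 ± 0.43 (SD, n = 5) differed by 1.36 (SE 0.25, adjusted p = 0.576 in limma). PLOD2, a lysyl hydroxylase, was at background in GI-ME-N, with signals of 12.3 and 1.83, and down to 4.71 in normoxic neuroblastic lines. Its difference of 2.07 (SE 0.95) was 1.36 without GI-ME-N, 1.39 without SK-N-F1 and 0.96 with signals floored at 50.

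Of 19 Jumonji demethylases and TET enzymes, KDM3A and KDM5B rose in the neuroblastic lines, against 0.184% of all measured genes. The larger change was there for 10 of 19, close to the 45.2% over all measured genes. KDM3A, a histone H3 demethylase and known hypoxia target, went from a median of 1201 to 3443 in the neuroblastic lines. Its log2 change was 1.21 in SHEP-2, just inside the neuroblastic range of 1.18 to 2.12. The other adherent lines were below that range, at 1.05 in ACN, 0.40 in GI-ME-N, 0.28 and 0.19 in the SHEP21N cultures. The difference was 0.98 (SE 0.26, adjusted p = 0.835 in limma, exact permutation p = 0.00866). KDM3A was picked from its list by the p of that difference, so the permutation p is no independent support. KDM5B changed by 0.58 to 1.11 in the neuroblastic lines, and by 0.55, 0.40, 0.06, 0.55 and -0.20 in ACN, in SHEP-2, in GI-ME-N and in SHEP21N without and with MYCN overexpression. Its classes did not overlap, by a narrow margin, and the difference was 0.59 (SE 0.20), or 0.34 as the mean of all its probesets. Of 10 oxygen sensing genes 0 were called in limma in either class or for the difference. The larger change was in the neuroblastic lines for 5, against 45.2% of all measured genes. HIF1A, the alpha subunit, had means of -0.16 and -0.08. EPAS1, the alternative subunit, had 0.91 and -0.25 with a difference of 1.16 (SE 0.88). ARNT2, a partner subunit, had -0.28 and 0.70 with a difference of -0.98 (SE 0.38, unadjusted p = 0.0254 in limma), and -0.47 without both SHEP21N cultures.

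Among 17 angiogenic and secreted factors only VEGFA, the main inducer of vessel growth, rose in the neuroblastic lines, against 0.184% of all measured genes. The larger change was there for 7 of 17, against 45.2% of all measured genes. VEGFA went from a median of 1058 to 3434 in those lines, with changes from 1.41 in SK-N-BE2(C) to 3.81 in IMR-32. The adherent changes of 2.42, 1.46, 1.23, 1.71 and 0.42 in ACN, in SHEP-2, in GI-ME-N and in SHEP21N without and with MYCN overexpression overlapped them except in GI-ME-N and the last. The difference was 0.99 (95% CI 0.01 to 1.97, adjusted p = 0.835 in limma), and 0.61 with the lines of the collection alone (adherent ACN and GI-ME-N). EFNA3, a membrane-bound ligand, had means of 0.63 and 1.58, at signals of at most 422. Among 14 stress and mTOR genes DDIT4, which restrains mTOR, rose in the neuroblastic lines (2.63, against a mean of 1.96 in the adherent lines), and ARRDC4, an arrestin-like regulator of glucose uptake, had no overlap with means of 0.96 and -0.29. DDIT4 and NDRG1, a stress-responsive differentiation gene, were at least 2-fold higher in hypoxia in all 11 lines (0.016% of measured genes).

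In every neuroblastic line 16 genes were at least 2-fold higher in hypoxia (0.128% of measured genes), and in every adherent line 5 (0.0399%). The 16 were largely known hypoxia targets, among them BNIP3L, a mitophagy receptor related to BNIP3, with means of 1.48 and 0.96. CFAP95, a cilium-associated gene, was among them with means of 2.09 and -0.59. The 5 were DDIT4, NDRG1, ANKRD37, HILPDA and NOG, an antagonist of bone morphogenetic proteins, which had means of -0.45 and 2.29. In 9 genes (0.0719%) every neuroblastic line was higher and every adherent line lower in hypoxia, among them RGS4, CLCN5, DBH and GPM6A, a neuronal membrane glycoprotein with means of 0.83 and -1.10. The reverse held for BCAR3, TRAPPC14 and ZNF135 (0.024%).

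RGS4 had the smallest p for the class difference. It encodes a GTPase-activating protein that shuts off signalling through G proteins and is abundant in neurons. Its signals lay between 639 and 9042 (median 2563) in normoxic and between 3206 and 35009 (median 17315) in hypoxic neuroblastic lines. In the adherent lines they went from 12.5 to 10.9 in ACN, from 12056 to 8115 in SHEP-2, from 20847 to 19113 in GI-ME-N, from 4338 to 4246 in SHEP21N without and from 2847 to 1585 with MYCN overexpression. All 6 neuroblastic lines were higher in hypoxia and all 5 adherent lines lower, although ACN was at background in both states, so its ratio there is one of background signals. Normoxic levels overlapped, and SHEP-2 and GI-ME-N started above every neuroblastic line. The log2 change averaged 2.54 ± 0.75 (SD, n = 6), which passed the test, and -0.35 ± 0.22 (SD, n = 5), which did not. The difference of 2.89 (SE 0.34, 95% CI 2.15 to 3.63) had an adjusted p of 0.0823 in limma and an exact permutation p of 0.00433. The latter is the smallest that test allows, and any gene without overlap gets it. As RGS4 was picked by its p, the permutation adds nothing to the lack of overlap. The difference at RGS4 passed in 5 of 28 alternatives in limma, among them with signals floored at 50 (adjusted p = 0.0241). Another left out SK-N-BE2(C), the neuroblastic line with the smallest change, 1.14 (adjusted p = 0.000883). It did not pass with the 3 alike neuroblastic lines averaged, where the smallest adjusted p of any probeset was 0.591. That smallest value was 0.634 when the SHEP lines were averaged too, and 0.999961 without the line as a block. The difference itself lay between 2.69 and 3.17 in the 28 alternatives. The other probesets gave 2.80 and 2.43, and at the dimmest of the 3 ACN changed by 2.05.

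CLCN5, an endosomal chloride-proton exchanger, came next. It changed by 0.09 to 0.75 in the neuroblastic lines and by -0.87, -1.51, -1.19, -1.07 and -1.54 in ACN, in SHEP-2, in GI-ME-N and in SHEP21N without and with MYCN overexpression. The fall in the adherent lines passed (adjusted p = 0.0369 in limma), the small increase in the neuroblastic lines did not, and the difference was 1.58 (SE 0.20, adjusted p = 0.0971). Its other 3 measured probesets gave differences of -0.42, 0.81 and 0.46, so the result rests on 1 probeset. DBH, which makes noradrenaline and is itself an adrenergic marker, changed by 0.43 to 1.55 in the neuroblastic lines, but its adherent signals of at most 76.1 were near background, and their mean change of -1.07 is part of its difference of 2.22 (SE 0.42), which was 1.32 with signals floored at 50. The remaining genes with the smallest p for a higher signed neuroblastic change were CLVS1, ADAMTS2 and DNAJC6. CLVS1 had means of 0.20 and -1.93 at adherent signals of at most 95.7, and its difference of 2.13 was 0.51 with signals floored at 50. ADAMTS2, a procollagen peptidase, rose by 2.77 in the neuroblastic lines from normoxic signals of at most 98.8, and DNAJC6, an uncoating factor of clathrin vesicles, had means of 0.24 and -0.57.

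Other genes had the higher signed change in the adherent lines, and for 0.248% of measured genes every neuroblastic change lay below every adherent change. HILPDA, a lipid droplet protein induced by hypoxia, had a mean change of 0.51 ± 0.46 (SD, n = 6) in the neuroblastic and 1.99 ± 0.94 (SD, n = 5) in the adherent lines. The adherent changes were 1.12 in ACN, 1.31 in SHEP-2, 1.96 in GI-ME-N, 2.07 in SHEP21N without and 3.51 with MYCN overexpression. The highest neuroblastic line, SK-N-F1 at 1.31, reached that range, while the other 5 were at most 0.65. The difference was -1.49 (SE 0.41, adjusted p = 0.835 in limma, exact permutation p = 0.013), and -0.96 without both SHEP21N cultures. HILPDA was picked by the p of its adherent change in these arrays, so the permutation p is no independent support. ENO2, the neuronal enolase, had normoxic signals between 2089 and 3357 in the neuroblastic lines and between 280 and 1502 in the adherent lines. Its mean changes were 0.63 and 1.47, a difference of -0.84 (SE 0.33). With the lines of the collection alone (adherent ACN and GI-ME-N) that difference was -0.11. ANKRD37, an ankyrin-repeat protein and known hypoxia target, rose in both classes, by 1.49 and 1.96, and the difference of -0.47 (95% CI -1.09 to 0.14) did not pass.

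The 8 genes with the smallest p for a lower signed neuroblastic change were XG, PAX5, SLC60A2, PRR5L, RAB3C, RAP1GAP, DHRS2 and CFLAR. Several were at low signals in 1 class, as RAB3C, a synaptic vesicle GTPase, with adherent signals of at most 71.9 and a difference of -2.34, and PAX5, a transcription factor of B cells, with a difference of -1.58. With signals floored at 50 these were -0.28 and -0.81. CFLAR, an inhibitor of the death receptor pathway, was well measured in the adherent lines, with signals between 900 and 2057. It changed by -1.15 to -0.46 in the neuroblastic lines and by -0.14 in ACN, 0.07 in SHEP-2, -0.34 in GI-ME-N, 0.48 and 0.18 in SHEP21N without and with MYCN overexpression. The difference was -0.81 (SE 0.20, adjusted p = 0.835 in limma), or -0.39 as the mean of all its probesets. XG, a cell surface blood group protein, changed by -2.99 to -0.73 and had means of -1.66 and 0.49, from neuroblastic normoxic signals of at most 86.4, and its difference of -2.15 was -0.44 with signals floored at 50.

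**Figure D4:**
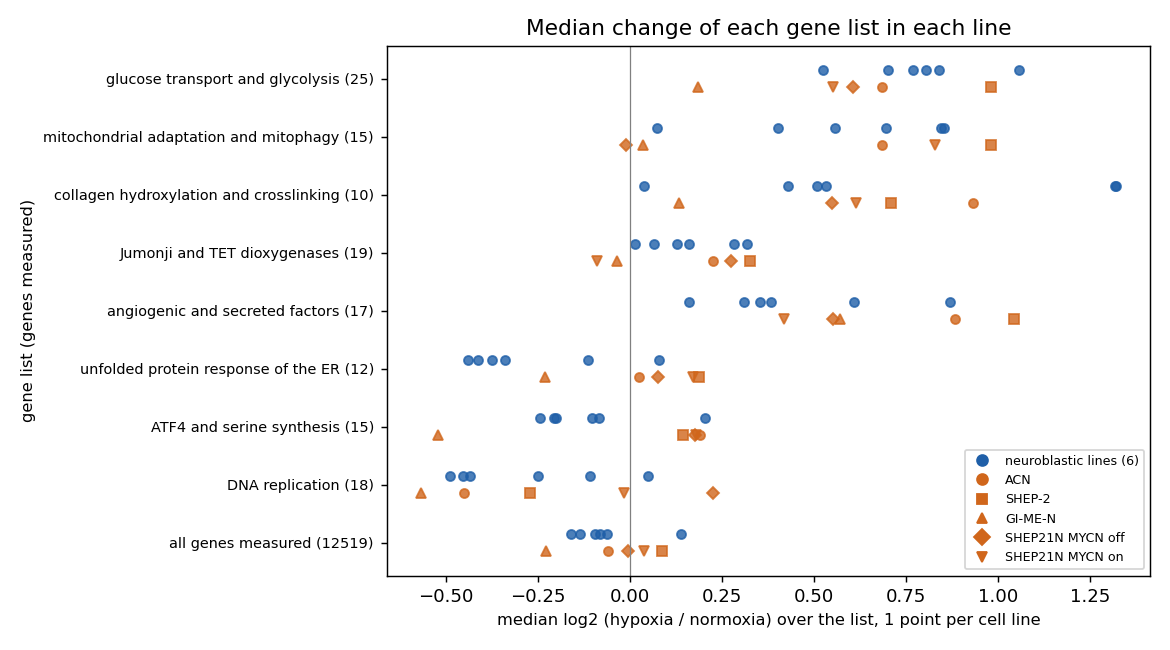
Median log2 change of each gene list in each cell line, with the number of measured genes in parentheses, neuroblastic lines in blue and adherent lines in orange. The unfolded protein response is below 0 in 5 of 6 neuroblastic lines and above 0 in 4 of 5 adherent lines. The median over all genes has the same sign as this list in every neuroblastic line. It runs from -0.16 in SK-N-F1 to 0.14 in SK-N-SH, and from -0.23 in GI-ME-N to 0.09 in SHEP-2.

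Outside the hypoxia pathway, the 12 measured genes of the unfolded protein response of the endoplasmic reticulum all had the lower mean change in the neuroblastic lines, with medians of -0.23 and 0.02 and a median difference of -0.31. Over all measured genes 45.2% had the higher change there, and the median difference was -0.04. With the signals as deposited and with quantile normalization the count on the list was 10 of 12. With the lines of the collection alone (adherent ACN and GI-ME-N) it was also 10 of 12, at a median difference of -0.11. Line medians ran from -0.44 in SK-N-F1 to 0.08 in SK-N-SH and from -0.23 in GI-ME-N to 0.19 in SHEP-2, so the classes overlapped. PDIA4, a folding enzyme, had means of -0.40 and 0.18, with -0.28 in ACN and -0.36 in GI-ME-N, and its difference of -0.59 was -0.31 without both SHEP21N cultures and -0.085 with the lines of the collection alone. HSP90B1, a chaperone, had -0.18 and 0.42, of which the second rests on SHEP21N with MYCN overexpression, at 1.62 against at most 0.27 in the other adherent lines. In limma 0 of the 12 genes were called in either class or for the difference, where PDIA4 had an unadjusted p of 0.0345. DNA replication genes had median changes of -0.27 in the neuroblastic and -0.18 in the adherent lines. Their signed change was lower in the neuroblastic lines for 16 of 18 genes and higher for 2. Without both SHEP21N lines it was higher there for 16 of 18. HMGCS1 and INSIG1, of the cholesterol pathway, had means of 0.06 and -0.59, and of 0.15 and -0.34. Across the 25 lists, which included the mitotic, repair, ribosomal, respiratory, inflammatory and interferon genes, 0 genes were called for the difference.

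The 31 measured genes of the study's own hypoxia signature had median changes of 1.48 and 0.96. The neuroblastic change was the larger in 24 of 31, against 45.2% of all measured genes, and between 23 and 25 when any line was left out. Of the 31, 14 rose in the neuroblastic and 1 in the adherent lines, against 0.184% and 0.00799% of all measured genes. For the difference 0 were called. The signature was chosen on these arrays, so its counts are not independent evidence of a direction.

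Normoxic levels differed between the classes at the same genes. Of the 23 genes that rose in the neuroblastic lines, 21 (91.3%) had the higher mean log2 level in the adherent lines in normoxia, against 36.9% of all measured genes, and 9 (39.1%) in hypoxia, against 39.2%. The median gap, adherent minus neuroblastic, was 0.77 in normoxia and -0.10 in hypoxia. P4HA2 was higher in the adherent lines by 2.07 in normoxia and 1.51 in hypoxia, GBE1 by 2.69 and 1.59, and FAM162A by 0.97 and -0.28. RGS4 and HK2 were the exceptions, higher in the neuroblastic lines in normoxia by 0.54 and 1.41. These genes were chosen by their change in the neuroblastic lines, which contains the same normoxic values, so the gap is a description. In bulk RNA fewer cells of a type and less RNA per cell cannot be told apart.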

How the data were processed

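The deposited values were intensity signals from Affymetrix HG-U133 Plus 2.0 arrays, which the authors made with MAS5 (version not given in the sources used here) and scaled to an average of 500, 1 array per culture and with no replicates. From them log2 signals were centred on each array's median and the log2 ratio of hypoxia over normoxia was taken within each line, so that the line is the block. Pairing comes from the line names in the labels. Class means and their difference were fitted with limma 3.58.1 in R 4.3.3 over 28515 of 54675 probesets with a mean signal of at least 100, with Benjamini-Hochberg adjustment and a limit of 0.05. Both classes shared 1 estimate of spread per probeset, although the median SD was 0.36 in the neuroblastic and 0.64 in the adherent lines. Standard errors, intervals and calls in limma rest on that. The two-sided exact permutation test used all 462 class splits (scipy 1.17.1, Python 3.11.15). A gene was read at its brightest probeset naming 1 gene. Of the probesets kept, 23689 name 1 gene, 1123 several and 3703 none in the platform annotation.

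Named were the marker genes, the 8 genes with the smallest p of the difference in each direction, the 2 with the smallest p in each list, the 5 with the smallest p in each class, controls, and members that passed the test. Other list members named for comparison, and NOG, CFAP95, GPM6A, BCAR3, TRAPPC14 and ZNF135, were chosen after their values were seen. The members, classes and gene lists were chosen with earlier results of these data known. The fit was run on simulated data with independent lines and the same spread in both classes. These arrays have neither, so that run does not give the error rates here. The number of arrays limits the precision, and signal carries no read depth. Alternatives changed scaling, floor, filter, variance model, weights, lines and pairing. Values for individual arrays' quality come from the control probesets. Promoters came from RefSeq (GRCh38.p14).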

Additional observations from a re-analysis of the deposited data

Results flagged for a closer look

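In 8 of 144 groups of lines tested, 1 line stood far from the rest of its class by Dixon's criterion, which chance gives in about 1 in 20 groups. They were 6 in the adherent and 2 in the neuroblastic lines, and 4 of them were SHEP21N with MYCN overexpression, the culture with the poor normoxic array. In that culture the log2 change was 4.18 at BSG, a lactate transporter chaperone (-0.25 to 0.70 in the other adherent lines), 2.12 at SDHC (-0.23 to 0.15), 1.62 at HSP90B1 (0.02 to 0.27) and 1.53 at ACTB (-0.18 to 0.15). SHEP21N without overexpression had -1.01 at ZEB1 (-0.30 to -0.15 in the others). GI-ME-N had -2.99 at PLOD2 (-0.14 to 0.95), from background signals. Among the neuroblastic lines SK-N-BE2(C) had 1.14 at RGS4 (2.44 to 3.12), with the highest normoxic signal of the class, and GI-LI-N had -0.66 at DUSP1 (-0.03 to 0.34).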

How the results depend on the processing

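Counts of called probesets are given for the difference, the neuroblastic and the adherent lines, against 0, 49 and 3. A floor of 50 gave 2, 87 and 7, no filter 0, 26 and 0, a mean signal of at least 300 gave 2, 78 and 4, an intensity trend with a robust prior 1, 94 and 28, and the methods' t-test 0, 0 and 0. Without the line as a block (no replicate block) they were 0, 8 and 0. Averaging SK-N-SH, GI-LI-N and IMR-32 gave 0, 0 and 0, and averaging also the 3 SHEP lines 0, 5 and 0. Without both SHEP21N lines they were 10, 49 and 50, with the collection's lines alone 46, 45 and 82, and with the provider as a covariate 10 for the difference and 16 for the adherent lines. The collection's lines leave only ACN and GI-ME-N in the adherent class, and the provider covariate takes the class difference from the same lines. RGS4, CLCN5, FAM162A, BNIP3 and EGLN3 were not among the calls for the difference in any of these settings. Leaving out 1 line gave 0 to 2, 26 to 50 and 0 to 47, the last without GI-ME-N. The 2 for the difference came without SHEP-2 and 1 without SK-N-BE2(C). Chosen after seeing the data, weights per line gave 0, 456 and 0, a mean signal of at least 100 in each class 1, 66 and 2, and fitting each class alone 22 and 0 in the classes. Direction turned at EGLN3 (-0.036 with both groups averaged, -0.11 without both SHEP21N lines, -0.43 with the collection's lines or the provider). With the collection's lines or the provider it turned at ARNT (-0.0049), MRE11 (-0.015), UQCRC1 (0.13), PECAM1 (-0.25) and ACTB (0.089), and at PECAM1 also with both groups averaged (-0.067). At MYCN it was -0.075 with the SHEP lines averaged, -0.086 with both groups averaged, -0.33 with the collection's lines or the provider, -0.21 with weights and -0.45 over all probesets, and -0.22 to 0.47 when leaving out 1 line. Leaving out 1 line gave -0.19 to 0.026 at HIF1A and -0.13 to 0.021 at GAPDH. The mean over all probesets turned HSP90B1 (0.085), FANCI (-0.039) and POSTN (-0.32). The cause was not tested. The differences at FAM162A, BNIP3, RGS4, CLCN5, P4HA1, PFKFB3, KDM3A and HILPDA kept their direction in all 28 alternatives. That was the common case. Over all named genes and alternatives, direction turned in 28 results, while 1954 kept direction and call and 8 came to pass. The alternatives reuse the same arrays, and another CLCN5 probeset had the other sign.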
